A study of Mus musculus with 6 samples.

Results

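The tricarboxylic acid (TCA) cycle enzymes described here are 9 genes chosen by name from the deposited gene table: Cs, Idh3a, Idh3b, Idh3g, Ogdh, Suclg1, Sdha, Fh1 and Mdh2. All 9 were found among the 16403 genes of the table and all 9 were among the 12564 genes that passed the filter on low counts. They were measured by bulk mRNA sequencing of bone marrow LSK cells, the lineage-negative, Sca-1-positive, Kit-positive fraction that holds hematopoietic stem cells and multipotent progenitors. Both groups were C57BL/6 mice. The LIP group carried a ligature that induces periodontitis, a local gum inflammation with bone loss, and the NL group had no ligature. Marrow was taken on day 7, and age and sex are not given in the sources used here. Each group had 3 libraries, each from cells pooled from 3 mice, so a library is a pool and not an animal.

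The TCA cycle runs in the mitochondrial matrix, where it burns acetyl groups to carbon dioxide and passes their electrons to the respiratory chain. Its intermediates also feed the synthesis of lipids, amino acids and heme, and alpha-ketoglutarate, succinate and fumarate act on enzymes that modify chromatin. Hematopoietic stem cells are known for low mitochondrial activity that rises as they differentiate, and fumarate accumulation has been linked to trained immunity in monocytes. The series title frames the comparison as trained immunity brought on by periodontitis.

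The members did not move as a block. In LIP libraries Ogdh rose by 9.24%, while Idh3a fell by 12.1%, Idh3g by 9.73%, Fh1 by 9.22% and Idh3b by 6.37%, and Cs, Suclg1, Sdha and Mdh2 did not pass the test. Thus 1 of 9 members rose and 4 fell at an adjusted p below 0.05 in edgeR's quasi-likelihood test. Of all tested genes 29.9% were called, 14.1% higher and 15.8% lower, so a call is common in this comparison. The summed level of the 9 members was 1836 ± 22.9 CPM (counts per 1e6 counts of the TMM-scaled library; SD, n = 3) in NL and 1834 ± 2.14 CPM in LIP. On the authors' TPM, a share of transcripts scaled by length, the sum was 1608 ± 26.8 in NL and 1719 ± 24.8 in LIP (SD, n = 3), with every LIP library above every NL library. That scale also raised genes at large in LIP: on log2(TPM + 1) the median change of all tested genes was 0.11. There 4568 genes were called higher and 540 lower (limma-trend). In bulk samples a smaller share of cells with an mRNA and less of it per cell cannot be told apart.

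Stretches just upstream of the start site are shown for the 3 called members whose 120 bases before the RefSeq start on GRCm38.p6 hold no exon in GENCODE M21: the member that rose, Ogdh (chr11:6291477-6291596, plus strand), and the members Idh3g (chrX:73786898-73787017, minus strand) and Fh1 (chr1:175625636-175625755, minus strand), which fell. The sequences are from RefSeq, read 5′ to 3′ along the gene, with matches in capitals to any of 4 motifs, searched on both strands: CCAAT, the ETS core CCGGAAG, the NRF1 core and the cAMP element TGACGTCA.
Ogdh: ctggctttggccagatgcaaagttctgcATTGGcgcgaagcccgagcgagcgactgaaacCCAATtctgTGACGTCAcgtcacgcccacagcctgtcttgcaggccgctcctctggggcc
Idh3g: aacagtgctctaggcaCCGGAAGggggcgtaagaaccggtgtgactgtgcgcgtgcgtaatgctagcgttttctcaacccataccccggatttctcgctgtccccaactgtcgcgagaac
Fh1: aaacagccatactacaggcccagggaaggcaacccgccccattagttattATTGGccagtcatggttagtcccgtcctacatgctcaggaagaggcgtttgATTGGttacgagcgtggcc

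No motif is in all 3 windows. Ogdh holds CCAAT on each strand and 1 cAMP element, Fh1 holds 2 CCAAT matches, both on the reverse strand, and Idh3g holds 1 ETS core. Among windows of the same length before 27025 RefSeq genes, 22.1% held CCAAT, 5.17% the ETS core, 2.94% the NRF1 core and 1.29% the cAMP element. CCAAT was also found before Cs, with 2 matches, and before Idh3b, with 1. The NRF1 core was found before 1 member, Sdha, which had 3 matches, and none of the 4 motifs was found before Suclg1 and Mdh2. The windows of Idh3b, Sdha, Suclg1 and Mdh2 overlap annotated exons of their own gene and, for Sdha, also of Ccdc127, unlike the windows shown. The promoter table had an entry for 8 of the 9 members, all but Idh3a. The Idh3g stretch lies between Idh3g and Ssr4, which encodes a subunit of the translocon-associated protein complex and starts on the other strand with 125 bases between the starts. Ssr4 also fell, with a log2 fold change of -0.20 ± 0.04 (SE; edgeR adjusted p 3.08e-05), where 15.8% of all tested genes were called lower. Whether the falls of Idh3g and Ssr4 are linked was not tested. Sdha likewise has 76 bases between its start and that of Ccdc127 on the other strand, but Ccdc127 fell with a log2 fold change of -0.20 (edgeR adjusted p 0.00118) while Sdha stood at 0.08. A motif match is a description of letters and was not tested for any factor.

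Levels between genes can be compared only per transcript length, for which the authors' TPM (a length-scaled share of transcripts) was used. Mdh2, malate dehydrogenase, had the highest mean level over the 6 libraries, 365 TPM with a range of 339.9 to 392. Idh3g followed with 321 TPM and then Sdha with 191 TPM, and the ranges of Mdh2, Idh3g and Sdha did not overlap. Cs at 164 TPM and Idh3b at 154 TPM were not separated, since Cs was above Idh3b in 4 of 6 libraries, and Sdha and Cs overlapped in range although Sdha was above Cs in each library. Suclg1 at 134 TPM lay below Idh3b in every library with no overlap in range. The range of Ogdh, at 124 TPM, overlapped those of Suclg1 and of Fh1, at 117 TPM. Idh3a was lowest at 94.6 TPM, and its range of 90.8 to 97.4 lay below that of Fh1. Within the isocitrate dehydrogenase complex, Idh3g therefore had the highest mRNA level per length and the catalytic subunit gene Idh3a the lowest.

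**Figure D1:**
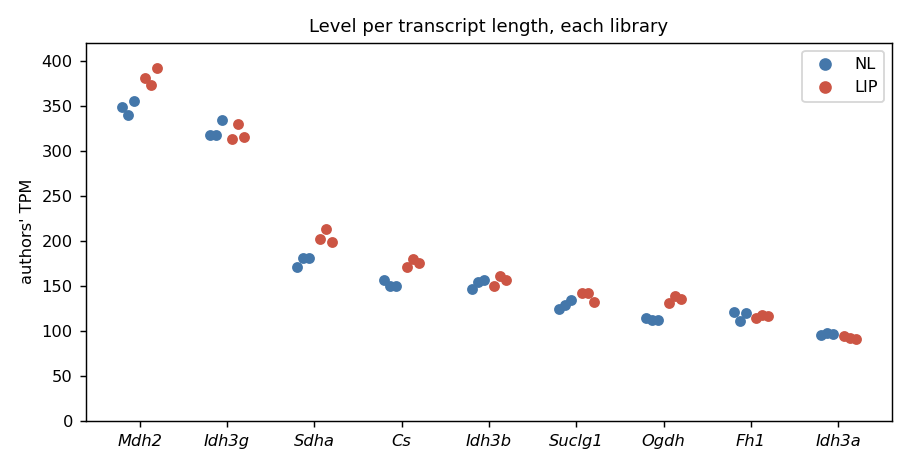
Authors' TPM of the 9 members (y axis) in each NL (blue) and LIP (red) library, with genes ordered by mean level on the x axis. Mdh2 and Idh3g lie above 300 TPM in every library and Idh3a below 100 TPM, and the spread within a gene is small beside the differences between the outer genes.

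Citrate synthase, the product of Cs (chromosome 10, 128337727 to 128362482), joins acetyl-CoA to oxaloacetate to start the cycle. It stood at 261, 253 and 251 CPM in NL libraries 1 to 3 and at 266, 269.6 and 271 CPM in LIP libraries 1 to 3. The groups did not overlap, but the log2 fold change of 0.08 ± 0.03 (SE) had an edgeR adjusted p of 0.0622. Without NL replicate 1, the highest of the controls, the edgeR adjusted p was 0.0422. Leaving out any other single library gave an edgeR adjusted p from 0.0829 to 0.190.

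The 3 subunit genes of the NAD-dependent isocitrate dehydrogenase, which makes alpha-ketoglutarate in an irreversible and regulated step, all fell. Idh3a, the catalytic alpha subunit gene (chromosome 9, 54586511 to 54604662), had 135, 139 and 136 CPM in NL and 125, 118 and 118 CPM in LIP. All LIP libraries were below all NL libraries, and the log2 fold change was -0.19 ± 0.04 (SE; edgeR adjusted p 5.7e-05), the largest in size among the 9. Idh3g, the regulatory gamma subunit gene (chromosome X, 73778963 to 73786897), had 243, 247 and 258 CPM in NL and 224, 228 and 223 CPM in LIP. It too was lower in every LIP library, with a log2 fold change of -0.15 ± 0.03 (SE; edgeR adjusted p 0.000357). Idh3b, the beta subunit gene (chromosome 2, 130279309 to 130284451), had 127, 135 and 137 CPM in NL and 122, 126 and 125 CPM in LIP. These groups barely missed each other, with the lowest NL library near the highest LIP library, and the log2 fold change of -0.09 ± 0.04 (SE) had an edgeR adjusted p of 0.043. This call was lost with DESeq2 (adjusted p 0.131), with limma-voom (0.055) and without NL replicate 2 (0.181), NL replicate 3 (0.216), LIP replicate 1 (0.156) or LIP replicate 2 (0.0509). The 3 subunit genes together gave 519 ± 12.8 CPM in NL and 469 ± 2.72 CPM in LIP (SD, n = 3 per group). On the authors' TPM their sum was 572 ± 13.3 in NL and 568 ± 13.9 in LIP, and the groups overlapped. The median of all tested genes rose by 0.11 on that scale in log2 terms. Ratios between these subunits overlapped between the groups for Idh3a over Idh3b, Idh3a over Idh3g and Idh3b over Idh3g.

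Ogdh (chromosome 11, 6291597 to 6359094) encodes the E1 subunit of the alpha-ketoglutarate dehydrogenase complex, which uses the product of the isocitrate step. It had 297, 292 and 292 CPM in NL and 319, 321 and 323 CPM in LIP. The LIP libraries were all higher and the spread within each group was small, with a log2 fold change of 0.13 ± 0.03 (SE; edgeR adjusted p 0.00127). Ogdh was the only member without whole counts in the deposited table, so its level depends on how the authors' estimate shared reads. It was called higher in each of 17 alternative fits that could give a value.

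Suclg1 (chromosome 6, 73248505 to 73276907), the alpha subunit gene of succinyl-CoA ligase, had 98.5, 103 and 107 CPM in NL and 105, 101 and 96.7 CPM in LIP. The groups overlapped fully, with a log2 fold change of -0.03 ± 0.04 (SE; edgeR adjusted p 0.649), and its sign changed in 5 of 18 alternative fits. Sdha (chromosome 13, 74322255 to 74350240) encodes the flavoprotein that oxidises succinate in complex II, and had 288, 308 and 307 CPM in NL and 318, 325 and 309.7 CPM in LIP. The LIP libraries lay above the NL libraries by a narrow margin, and the log2 fold change of 0.08 ± 0.03 (SE) had an edgeR adjusted p of 0.0719. Without LIP replicate 3 the edgeR adjusted p was 0.0318. Of 18 alternative fits, 3 called Sdha higher and 15 did not, with log2 fold changes from 0.048 to 0.20.

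Fh1 (chromosome 1, 175601378 to 175625635) encodes fumarase, which turns fumarate into malate. It had 113, 106 and 113 CPM in NL and 100.3, 99.7 and 101 CPM in LIP. Every LIP library was below every NL library, with a log2 fold change of -0.14 ± 0.04 (SE; edgeR adjusted p 0.00351). Mdh2 (chromosome 5, 135778649 to 135790386), which closes the cycle by remaking oxaloacetate, had 252, 250.3 and 259.8 CPM in NL and 258, 244 and 264 CPM in LIP. Its groups overlapped, with a log2 fold change of 0.01 ± 0.03 (SE; edgeR adjusted p 0.914).

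**Figure D2:**
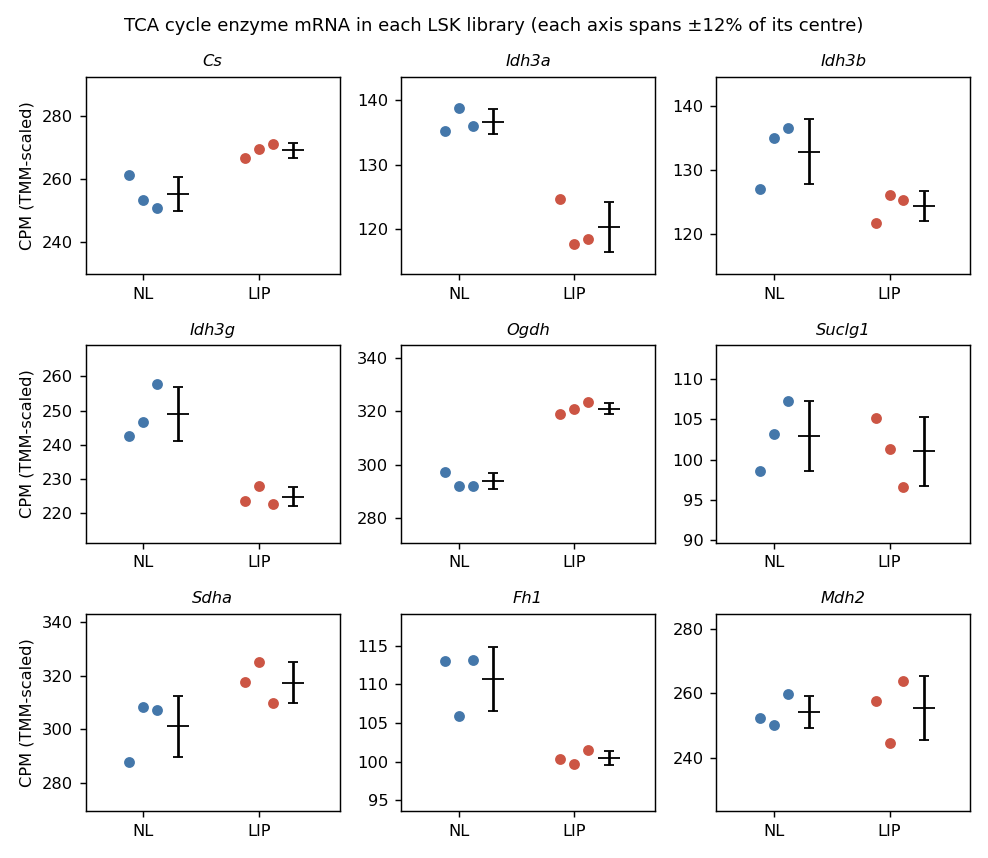
TMM-scaled CPM (y axis) of each member in the 3 NL (blue) and 3 LIP (red) libraries; dashes and bars beside the points are the mean ± SD, n = 3, and each axis covers 12% either side of its centre and does not start at 0. Groups stand apart in 7 of 9 panels, and Suclg1 and Mdh2 overlap.

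For 7 of the 9 members the CPM values of the groups did not overlap, LIP above NL in 3 (Cs, Ogdh and Sdha) and below in 4. Over all tested genes 40.9% did not overlap, 19.9% with LIP above and 21.0% with LIP below. The median log2 fold change of the members was -0.03, against -0.00072 over all tested genes. The counting error of a member in a library of mean depth was between 1.33% and 2.32% of its level.

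Other subunits of the cycle, a list of 9 genes of which 8 were tested, had no gene higher and 4 lower. Over all tested genes 14.1% were called higher and 15.8% lower, and short transcripts were called lower more often, as given below. In the complex of Ogdh, the E3 gene Dld, shared with other dehydrogenase complexes, fell with a log2 fold change of -0.13 ± 0.04 (SE; edgeR adjusted p 0.00469), and the E2 gene Dlst stood at 0.05 with an adjusted p of 0.239. The other subunits of complex II, Sdhb, Sdhc and Sdhd, fell. Sdhb, the iron-sulfur subunit gene, had 125, 121 and 130.1 CPM in NL and 108, 107 and 105 CPM in LIP, a log2 fold change of -0.23 ± 0.04 (SE; edgeR adjusted p 1.23e-06). Sdhd, a membrane anchor gene, fell by 0.19 on the log2 scale (edgeR adjusted p 8.33e-05), and the other anchor gene, Sdhc, fell by 0.10 with an edgeR adjusted p of 0.042, a call lost in 11 of 18 alternative fits, with a change of sign in 1 more. The NADP-dependent Idh2 stood at -0.03 (adjusted p 0.486), and the succinyl-CoA ligase beta subunits Suclg2 at -0.09 (0.0608) and Sucla2 at -0.03 (0.703), none of them called by edgeR. Ogdhl, a relative of Ogdh, had 0 to 6 counts per library and was not tested.

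**Figure D3:**
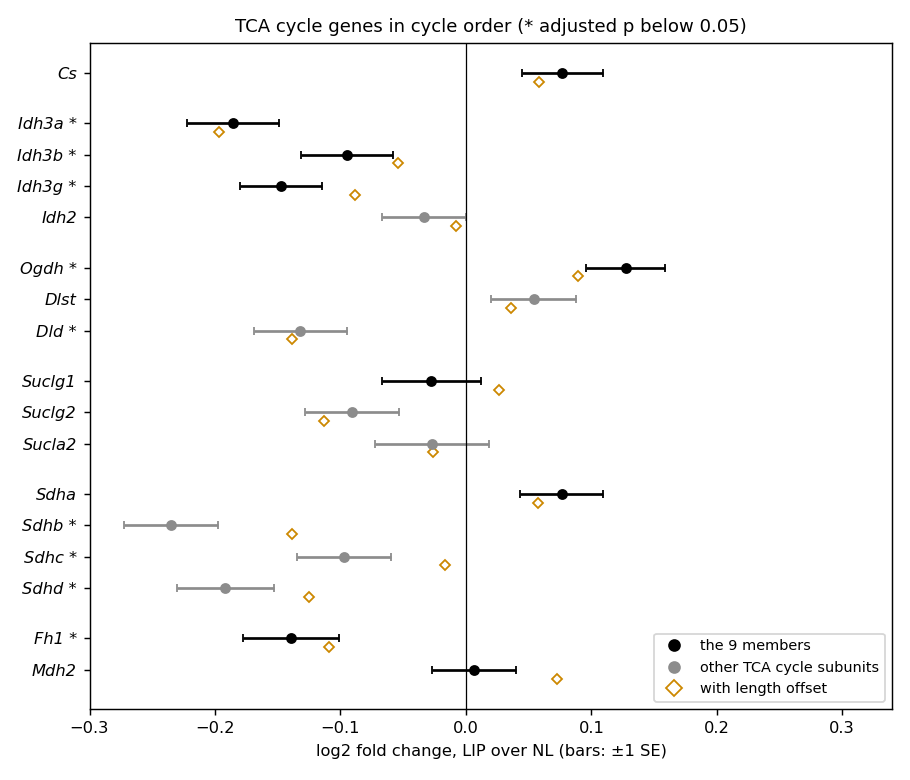
Log2 fold change, LIP over NL, with ±1 SE (x axis) for the 9 members (black) and the 8 other tested subunits on that list (grey), in cycle order on the y axis; open diamonds give the value with an offset for transcript length. Ogdh lies right of 0, the 3 Idh3 genes and Fh1 lie left, and within complex II Sdha (0.08) and Sdhb (-0.23) lie on opposite sides.

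Ratios between partner subunits of the same complex do not depend on how libraries are scaled, and 10 such ratios of members were computed, after the gene values had been seen. The TPM ratio of Sdha over Sdhb was 0.812, 0.907 and 0.841 in NL and 1.04, 1.08 and 1.05 in LIP. Sdha over Sdhd went from 1.10 ± 0.0166 to 1.32 ± 0.0454, Sdha over Sdhc from 0.955 ± 0.0636 to 1.08 ± 0.0603 and Ogdh over Dld from 1.33 ± 0.00485 to 1.59 ± 0.0477 (SD, n = 3 per group). In these ratios and in Ogdh over Dlst, 5 of the 10, every LIP library was above every NL library. Each of these 5 had an exact two-sided permutation p of 0.1, the smallest that 3 against 3 libraries allow, and 0.2 after adjustment over the 10 ratios, so the design cannot reach 0.05. The ratios of Suclg1 to Suclg2 and to Sucla2 overlapped. In each of the 5 separated ratios the first gene had the longer transcript, for instance 2775 bases for Sdha and 987 for Sdhb. Fold changes rose with transcript length in this comparison, as given below. The Idh3 ratios, which overlapped, also had the longer transcript first.

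**Figure D4:**
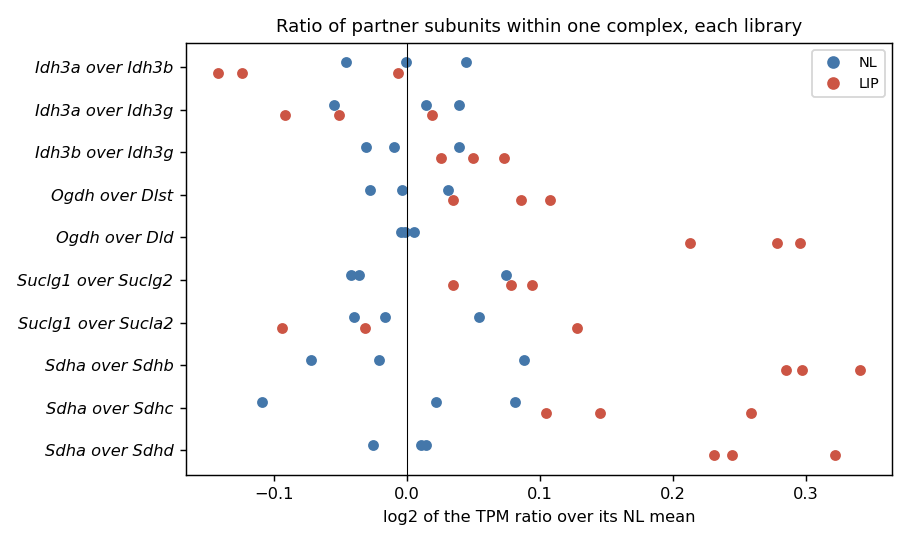
Log2 of the TPM ratio of partner subunits over its mean in NL (x axis), in each NL (blue) and LIP (red) library, for 10 ratios on the y axis. The Sdha and Ogdh ratios are shifted to the right in LIP, with Ogdh over Dld and Sdha over Sdhb, Sdhc and Sdhd the widest, while the Idh3 and Suclg1 ratios overlap.

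Of the 48 tested genes on the other lists around the cycle, remaining subunits included, 4 rose and 12 fell. That is 33.3% called, near the 29.9% over all tested genes. Where pyruvate enters, 3 of 7 genes fell and none rose: Mpc1 and Mpc2, which encode the mitochondrial pyruvate carrier, had log2 fold changes of -0.22 and -0.19, and Pdhb, a pyruvate dehydrogenase subunit gene, fell by 0.18. The Mpc1 call was lost in 2 and the Mpc2 call in 8 of 18 alternative fits. Among kinases and phosphatases of that enzyme, 2 of 6 rose: Pdk1, which encodes an inhibitory kinase, had 98.3, 100.1 and 103 CPM in NL and 117, 119 and 117 CPM in LIP, a log2 fold change of 0.23 ± 0.04 (SE; edgeR adjusted p 1.89e-06). The other was Pdpr, a phosphatase regulatory subunit gene, at 0.16 (edgeR adjusted p 0.00386).

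Of 4 cytosolic counterparts, Mdh1, the cytosolic malate dehydrogenase gene, fell with a log2 fold change of -0.21 ± 0.03 (SE; edgeR adjusted p 2.84e-06), unlike the value of 0.01 for the mitochondrial Mdh2, a difference that was not tested. Of 4 genes for assembly of complex II, Sdhaf2 fell by 0.14 and Sdhaf4 by 0.34, with calls lost in 7 and 4 of 18 alternative fits. Of 6 mitochondrial carrier genes, the dicarboxylate carrier gene Slc25a10 rose by 0.15, and the citrate carrier gene Slc25a1 and Slc25a21 fell by 0.10 and 0.27, with calls lost in 8, 14 and 14 of 18 fits. Oxsm, on the list for lipoic acid supply, rose by 0.20 and was the only 1 of 4 to be called, a call lost in 3 of 18 fits. None of 9 tested genes of the glutamine, glutamate and malate routes was called by edgeR, none had an unadjusted p below 0.05, and DESeq2 and limma-voom also called none. Acod1, which makes itaconate from a cycle intermediate in activated macrophages, had 1 to 9 counts per library, too few to enter the test.

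The implied transcript length, read count over FPKM scaled by the library total, ran from 1196 bases for Mdh2 to 4259 bases for Ogdh. For 8 members it shifted between libraries by nearly the same number of bases, for instance by 12.1 to 14.7 from NL-1 to NL-2. For Ogdh the shift from NL-1 was 14.6 bases in NL-2 but -25 in LIP-2. Fold changes followed length over all tested genes with a mean log2 CPM of at least 1. The first length decile, up to 1120 bases, had a median log2 fold change of -0.15, with 47.5% of genes called lower and 4.48% higher. Sdhb, Sdhc, Mpc1, Mpc2 and Sdhaf4 have lengths in that range. Genes of 1121 to 1564 bases, the second length decile, had a median of -0.06, with 24.8% called lower and 6.94% higher. Those of 3819 to 4570 bases, the eighth, had a median of 0.02. Of the members, 5 were in that second decile (Idh3b, Idh3g, Suclg1, Fh1 and Mdh2), and the longest, Ogdh, was in the eighth. Idh3a, at 2320 bases in the fourth decile, lay at -0.19 where the median was -0.0024. Across the 9 genes length and fold change had a Pearson r of 0.61 on log2 length and a Spearman rho of 0.5, given as a description since the genes share the same libraries.

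**Figure D5:**
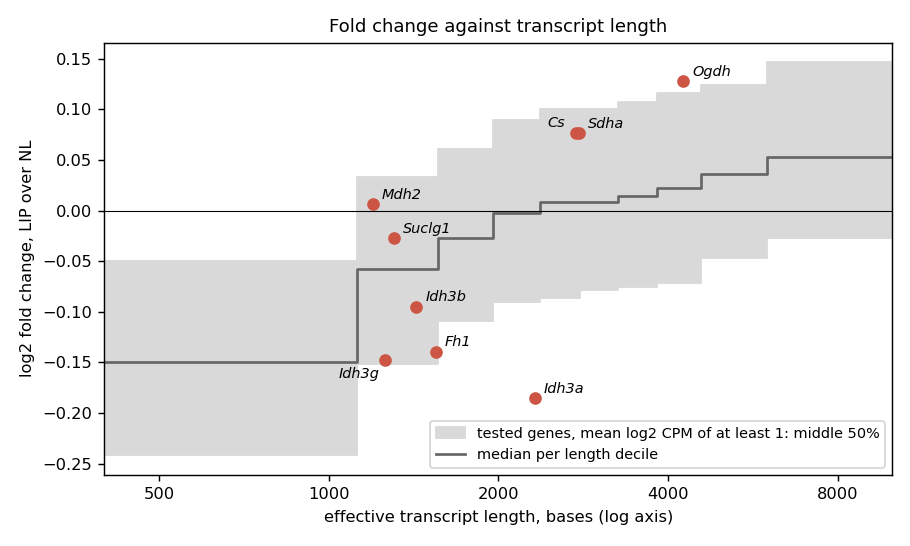
Log2 fold change, LIP over NL (y axis), against effective transcript length in bases (log x axis); the line and band are the median and the middle 50% of tested genes with a mean log2 CPM of at least 1 per length decile, the axis leaves out the ends of the outer deciles, and points are the 9 members. Ogdh lies above the band and Idh3a below it, and the other 7 members lie within it.

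With an offset that removes this length trend in each library, Ogdh stayed higher at 0.09 and Idh3a, Idh3g and Fh1 stayed lower at -0.20, -0.09 and -0.11, with edgeR adjusted p of 0.0169, 1.74e-05, 0.0278 and 0.0211. Idh3b was not called, at -0.05 with an adjusted p of 0.261 (edgeR). Of the other genes, Mpc1 went to -0.10 (edgeR adjusted p 0.0693), Mpc2 to -0.06 (0.538), Sdhaf4 to -0.15 (0.272), Sdhc to -0.02 (0.772) and Pdpr to 0.10 (0.0825), none of them then called. Sdhb at -0.14 and Sdhd at -0.13 stayed lower, with edgeR adjusted p of 0.00296 and 0.00729. Sdha over Sdhb moved from 0.31 to 0.20 on the log2 scale and Sdha over Sdhc from 0.17 to 0.07. Likewise Sdha over Sdhd moved from 0.27 to 0.18, Ogdh over Dld from 0.26 to 0.23 and Ogdh over Dlst from 0.07 to 0.05. Of the ratios whose groups overlapped, Idh3a over Idh3b moved from -0.09 to -0.14 and Idh3a over Idh3g from -0.04 to -0.11. Suclg1 over Suclg2 went from 0.06 to 0.14, Suclg1 over Sucla2 from -0.00059 to 0.05 and Idh3b over Idh3g from 0.05 to 0.03. Scaling also set the split of calls. With total counts alone 3 members rose and 2 fell, against 2756 higher and 1301 lower over all genes, and with log2(TPM + 1) 4 members rose and none fell (limma-trend), against 4568 and 540. The latter scale moved the median of all genes by 0.11, and relative to it, with each library centred on its median gene, 1 member rose (Ogdh at 0.14) and 3 fell (Idh3a at -0.17, Idh3g at -0.13 and Fh1 at -0.13), with limma-trend adjusted p of 0.00806, 0.00557, 0.0127 and 0.0262. Before that centring Idh3b stood at 0.03 and had changed sign.

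By likeness over the 6 libraries, the genes closest to the mean profile of the 9 members were Sqstm1, Kif23, Prpf19, Rpl7l1 and Vgll4, with Pearson r from 0.985 to 0.994, picked as the highest of 8663 candidates. That mean profile spanned only -0.02 to 0.04 in log2 CPM, since members went both ways. Among the members, Cs and Ogdh followed each other most closely (r 0.95), and Idh3a and Ogdh were the most opposed (r -0.97), values that carry the group difference.

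Library totals lay between 17780853 and 18841103 counts. The LSK markers Kit, Ly6a and 8 others were all detected, with 3 of 10 higher and summed levels of 2672 to 2692 CPM in NL and 2763 to 2797 CPM in LIP. Over all tested genes 14.1% were called higher and 15.8% lower. Most lists of markers of other cells moved with the groups as well. Neutrophil markers rose in 8 of 10 tested, with sums of 223 to 239 CPM in NL and 317 to 339.7 CPM in LIP and the defining marker Ly6g at 0 to 3 counts, monocyte markers rose in 6 of 7 (512 to 525 and 690.3 to 721 CPM), and B-lineage markers in 6 of 9 (72.9 to 74.9 and 91.2 to 94.7 CPM). Markers of T and NK cells rose in 3 of 7 (135 to 145 and 152 to 166 CPM). Those of megakaryocytes rose in 3 of 6, with sums that overlapped (153 to 166 and 161 to 173 CPM). Those of erythroid cells fell in 4 of 7 (567 to 587 and 499.6 to 540.2 CPM). The megakaryocyte and erythroid lists each held log2 fold changes of both signs, though none was called in the other direction. Heat shock and handling genes fell in 8 of 9, from 6533 to 6754 CPM in NL to 4739 to 5012 CPM in LIP. Most of that sum was Hspa8, with means of 5516 CPM in NL and 4255 CPM in LIP, which hides larger falls. The median log2 fold change of the 9 genes was -0.69. The largest were in Hspa1a, with means of 35.0 CPM in NL and 0.926 CPM in LIP, and Hspa1b, with 81.8 and 2.58 CPM. The part of these shifts in the values of the TCA cycle enzymes was not tested.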

How the data were processed

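Per the labels' protocols, sorted LSK cells gave Trizol-extracted RNA for polyA-selected libraries, read as 100 bp pairs (BGISEQ) at an average of 45.0 M reads. The submitters' processing notes name STAR, HTSeq and GRCm38, without versions or roles. The authors deposited estimated counts (expected counts, whole in 86.3% to 86.8% of values per library), FPKM and TPM per gene, per the file headers. The 6 columns of group means were not used.

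Counts were rounded before testing, because the planned test takes whole counts. Genes were filtered with filterByExpr and scaled with TMM, and LIP was compared with NL by the quasi-likelihood test of edgeR 4.0.16 (R 4.3.3, robust, group only). P-values were adjusted by Benjamini-Hochberg over all 12564 tested genes, with calls at an adjusted p below 0.05. SE were derived from the test statistic. A pseudocount of 1 was used for log2(TPM + 1) in limma 3.58.1, and DESeq2 1.42.0 was an alternative. The length offset was a lowess curve per library (span 0.3). Fits were tested on simulated data. Errors between libraries are between pools of 3 mice. Named genes were all members, called genes of the fixed lists, and uncalled remaining subunits. Acod1, the neighbours Ssr4 and Ccdc127, the heat shock genes Hspa8, Hspa1a and Hspa1b, the promoter windows and the partner ratios were added outside that rule, with values in view. Members and lists were chosen with earlier results of these data known. 1 gene of the planned lists is not reported here and was left out of their counts. Same-numbered libraries were not paired by the labels.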

Additional observations from a re-analysis of the deposited data

How the results depend on the processing

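Ogdh was called higher in each of the 17 alternative fits it entered, and Idh3a and Idh3g were called lower in all but log2(TPM + 1). Over 18 alternative fits, 161 values of the 9 members gave 130 with the same direction and side of the threshold, 15 that lost the call, 7 that gained it and 9 with the other sign. The cause of these changes was not tested. With DESeq2, 1167 genes were higher and 1317 lower, against 1776 and 1984, Idh3b was -0.093, and the other listed genes gave 2 higher and 6 lower, against 4 and 12. At an adjusted p below 0.01, 1148 genes were higher and 7 of the other listed genes lower. With whole-count genes only, 0 members were higher, since Ogdh is left out. With total counts alone, 2756 genes were higher and 1301 lower, 3 members were higher and 2 lower, 6 other listed genes were lower, Cs and Sdha were 0.12, Fh1 was -0.095, Idh3b -0.051, Suclg1 and the median of the members 0.017, Idh2 0.011 and Sucla2 0.017.

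With log2(TPM + 1), 4568 genes were higher and 540 lower, 4 members were higher and 0 lower, and the other listed genes gave 15 higher and 1 lower. Log2 values there were 0.20 for Cs and Sdha, 0.13 for Mdh2, 0.10 for Suclg1 and the median of the members, 0.033 for Idh3b, -0.010 for Fh1, -0.057 for Idh3a, -0.017 for Idh3g, 0.10 for Idh2 and Sucla2, 0.032 for Sdhc, 0.031 for Suclg2 and 0.023 for Slc25a1. With libraries centred, an alternative chosen after seeing the data, Idh3b was -0.084 and 2 other listed genes were higher. With the length offset Idh3b was -0.054 and Suclg1 and the median of the members 0.026. Idh3b also lost its call with limma-voom (-0.094), without a filter on low counts (-0.092) and with non-robust estimation (-0.095).

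Leaving out 1 library at a time gave 1 to 2 members higher and 3 to 4 lower, 2 to 4 other listed genes higher and 7 to 12 lower. Log2 fold changes ranged from 0.067 to 0.097 for Cs, 0.048 to 0.096 for Sdha, -0.12 to -0.072 for Idh3b, -0.018 to 0.037 for Mdh2, -0.057 to 0.0051 for Suclg1, -0.064 to 0.0039 for Idh2 and -0.045 to 0.0041 for Sucla2. Mdh2 changed sign without NL replicate 2 (-0.0016), LIP replicate 1 (-0.00042) or LIP replicate 3, Suclg1 without NL replicate 3 (0.0051) or LIP replicate 3 (0.0037), Idh2 without NL replicate 2 (0.0039) and Sucla2 without LIP replicate 1 (0.0041). A member was added to the higher calls without NL replicate 1 (Cs) or LIP replicate 3 (Sdha), giving 2, and the other listed genes fell to 7 lower without NL replicate 1 and to 2 higher without NL replicate 2 or LIP replicate 2.

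Same-numbered NL and LIP libraries had deviation correlations of 0.03, -0.02 and -0.11, against -0.11 to 0.13 for differently numbered ones. No shared effect of the number is seen, but these values cannot tell whether same-numbered pools were collected or handled together. With the replicate number as a block, 1750 genes were higher and 1979 lower, and 1 member was higher and 4 lower.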
